A study of Mus musculus with 9 samples.

Results

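The 77 genes described here encode the proteins of the mitochondrial ribosome, and they were taken from the deposited gene count table as the protein-coding rows whose symbol begins with Mrpl or Mrps followed by a digit. They are 77 of 35275 rows, 48 named for the large subunit (Mrpl) and 29 for the small subunit (Mrps). RNA was measured by poly-A RNA-seq in the gastrocnemius, the main calf muscle, of female NSG mice at 12 weeks of age, 1 library per numbered replicate. NSG mice are an immunodeficient strain without mature T, B and NK cells, and the genotype is given as wild type in both groups. All mice received extracellular vesicles (EVs), which are membrane-bound particles shed by cells, through the tail vein at about 10 µg per dose, 2 doses a week over 5 weeks and 10 in total, and muscle was collected 2 days after the last. In 4 libraries (the MCF-10A group) the EVs were those of MCF-10A cells, a non-tumorigenic human breast epithelial line, and in 5 (the MDA-MB-231 group) those of MDA-MB-231 cells, a human line from breast cancer. There was no group without EVs, so a difference between the groups cannot be assigned to either kind of EV. Pooling of animals is not mentioned, and nothing beyond the replicate number says that the libraries come from separate mice, so p-values measure the spread between these libraries.

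Mitochondria keep their own ribosome, which translates only the few proteins encoded in mitochondrial DNA, all of them subunits of the respiratory chain and ATP synthase. Its RNAs come from mitochondrial DNA, while every one of its proteins is encoded in the nucleus, made in the cytosol and imported. Part of the proteins have counterparts in bacterial ribosomes, and the others are specific to mitochondria. Skeletal muscle is rich in mitochondria. The names do not follow the structure for 3 members: Mrps30 and Mrps18a sit in the large subunit, and Mrps36 has been reassigned to the 2-oxoglutarate dehydrogenase complex. The comparison asks whether transcripts of this family, and of the large against the small subunit, differed between the muscle of the MDA-MB-231 group and that of the MCF-10A group.

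The members lay on 17 chromosomes, with 10 on chromosome 11 and 8 on chromosome 17. RefSeq promoters (build GRCm38.p6, 250 bases before to 50 bases after the start of transcription) were available for 68 of the 77 genes, as 74 promoters. Motifs of transcription factors known for nuclear genes of mitochondria were searched on both strands by their letters alone. The NRF1 core motif CGCNTGCG was in 27.0% of member promoters against 8.21% of all 32851 promoters and 11.1% of those of protein-coding genes. The ETS motif CCGGAAG, which is bound by GABP among other factors, was in 33.8% of member promoters against 8.86% of all and 11.6% of those of protein-coding genes. The YY1 motif AAGATGGCG was in 10.8% against 1.40% and 1.83%. All 3 motifs contain CG, and the promoters compared were not matched for base composition, so these shares are descriptive and were not tested. The NRF1 core was taken after matches of a longer form had been counted. Matches of different motifs overlapped in 0 member promoters, and 43 of the 68 genes held at least 1 of the 3 motifs. By subunit, the NRF1 motif was in 29.8% of large and 22.2% of small subunit promoters, the ETS motif in 29.8% and 40.7%, and the YY1 motif in 8.51% and 14.8%.

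Stretches of 4 promoters that hold a match are shown, from RefSeq GRCm38.p6 and without annotated exons, to show the form the NRF1 and ETS matches take in members named below. They are written 5′ to 3′ on the strand of the gene, with the match in capitals. Mrpl9 (chr3:94443216-94443317, plus strand) and Mrpl12 (chr11:120484517-120484612, plus strand) hold the NRF1 motif, and Mrpl34 (chr8:71464806-71464925, plus strand) and Mrps22 (chr9:98601680-98601799, minus strand) the ETS motif.
Mrpl9: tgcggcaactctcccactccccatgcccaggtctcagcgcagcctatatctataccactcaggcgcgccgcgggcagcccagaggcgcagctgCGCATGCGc
Mrpl12: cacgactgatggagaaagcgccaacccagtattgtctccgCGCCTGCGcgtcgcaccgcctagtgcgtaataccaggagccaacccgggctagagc
Mrpl34: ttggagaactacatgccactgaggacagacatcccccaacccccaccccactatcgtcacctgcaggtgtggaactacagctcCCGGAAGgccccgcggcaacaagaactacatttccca
Mrps22: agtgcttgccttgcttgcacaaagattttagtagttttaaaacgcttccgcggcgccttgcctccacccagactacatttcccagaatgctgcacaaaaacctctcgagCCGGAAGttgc

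Total counts ranged from 13943465 to 25195826 per library, with the lowest in MCF-10A replicate 2. The 10 markers of muscle fibres were all detected, at a median level of 7552 FPKM (fragments per kilobase of gene and per 1e6 counts, as deposited). Some libraries stood apart in other tissue markers. Slow-fibre genes had a mean log2 CPM (counts per 1e6 counts of a library, TMM-scaled) of 4.14 in MCF-10A replicate 1 and of 6.07 to 7.90 elsewhere. The insulin transcript Ins2 exceeded 10 CPM for MCF-10A replicates 2 and 3 and in MDA-MB-231 replicates 1, 3 and 4. In MDA-MB-231 the median log2 fold change was -0.33 for 13 fast-fibre genes, 0.49 for 14 slow-fibre genes, 0.52 for 7 fibroblast genes and 0.39 for 8 endothelial genes. Without MCF-10A replicate 1 the slow-fibre median was 0.10, with 5 of 14 below 0. The part of these markers in the values below was not tested, and in bulk muscle fewer cells of a type cannot be told apart from less RNA per cell.

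Of the 77 members, 76 had enough counts to be tested, among 13901 genes tested. Counts of the tested members ran from 19 to 4787 per library. Mrpl53 had 0 counts in every library, which at the lowest depth allows up to 0.215 CPM (3 counts of the library total, for counting error only). In the deposited table Mrpl53 (chromosome 6, 83109095 to 83109939, plus strand) lies wholly inside Ccdc142 (83101617 to 83109939) on the same strand, and Ccdc142 had 2 to 55 counts. In the GENCODE M21 annotation 88.0% of the exon bases of Mrpl53 are shared with Ccdc142. How reads in shared exons were assigned is not given in the sources used here, so the 0 cannot be read as absence of the transcript. Another 2 members share most of their exon bases with a neighbour: Mrps34 with Mapk8ip3 on the opposite strand (63.4%), and Mrps25 with Nr2c2 on the opposite strand (69.8%).

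Levels between genes were compared per length, as FPKM, with the gene lengths of the deposited table. These are often shorter than the summed exons of the gene in GENCODE M21, by more than 1.5 times for 31 of 75 members, so the order of levels depends on the length used. Of the 77 members, 48 had a mean over the 9 libraries between 10 and 60 FPKM, 21 were below and 8 above. The median member was at 21.8 FPKM for the large subunit and at 12.8 FPKM for the small subunit. By group, the median over large subunit members was 20.5 ± 2.22 FPKM (SD, n = 4) in MCF-10A and 21.9 ± 1.35 FPKM (SD, n = 5) in MDA-MB-231. For the small subunit it was 12.2 ± 1.93 FPKM (SD, n = 4) and 13.3 ± 1.36 FPKM (SD, n = 5). In both subunits these group values differed by less than 1 SD of the MCF-10A libraries, while the large subunit median was above the small in each of the 9 libraries. That order was the same in all 9 per exon length, with medians of 14.98 and 8.16 FPKM over 75 members.

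Mrpl42, a protein of the large subunit specific to mitochondria, had the highest level of the family by the deposited lengths. It was at 329.8, 251, 285 and 331 FPKM for MCF-10A replicates 1 to 4 and at 293, 323, 306, 300.0 and 291 FPKM for MDA-MB-231 replicates 1 to 5. Its mean of 301 FPKM over the 9 libraries was 2.73 times that of the next member, and the lowest Mrpl42 library lay above every library of every other member. This rank rests on a deposited length of 666 bases, where the exons of Mrpl42 jointly cover 3682 bases. Its longest coding transcript in GENCODE M21 also has 666 bases. Per length of that transcript Mrpl42 was again the highest of 75 members, at 301 FPKM. Per exon length Mrpl42 was at 54.5 FPKM, behind Mrps21 at 106, Mrpl2 at 81.5, Mrpl34 at 69.2 and Mrps28 at 55.03 FPKM.
Mrps21, the mitochondrial counterpart of bacterial protein bS21, came next by the deposited lengths, at 110.0, 54.9, 114 and 143 FPKM for MCF-10A and 104, 126, 101, 119.6 and 119 FPKM for MDA-MB-231. MCF-10A replicate 2 was the only library in which Mrps21 was below 100 FPKM. The following members were Mrpl2 at 92.5 FPKM and Mrpl30 at 89.6 FPKM, whose ranges over the libraries overlapped. Mrpl2 is the counterpart of a protein near the peptidyl transferase centre of the bacterial ribosome.

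Among small subunit names, Mrps36 followed at 70.8 FPKM and Mrps16 at 55.1 FPKM, and per exon length at 39.0 and 10.8 FPKM. The lowest tested level by the deposited lengths was that of Mrpl19, at 1.38, 2.52, 2.20 and 2.18 FPKM for MCF-10A and 2.40, 2.89, 2.34, 2.11 and 2.37 FPKM for MDA-MB-231. It shares 36.0% of its exon bases with Gcfc2 on the opposite strand. Mrps10 (mean 3.39 FPKM), Mrps35 (3.68 FPKM) and Mrps22 (4.44 FPKM) were next. Mrps10 and Mrps22 have deposited lengths of 4090 and 3296 bases, where their longest coding transcripts have 1018 and 1197 bases. Per length of that transcript both would be higher, so their low rank depends on the length used. Among large subunit names Mrpl47 (4.78 FPKM) followed Mrpl19. The ranges of Mrps10, Mrps35, Mrps22 and Mrpl47 over the 9 libraries overlapped. Levels of tested members thus ran from 2.27 to 301 FPKM, and per exon length from 1.51 (Mrps30) to 106 FPKM, for proteins that mostly occur in a single copy per ribosome. Mrpl12, the stalk protein present in several copies, was at 34.2 FPKM.

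**Figure D1:**
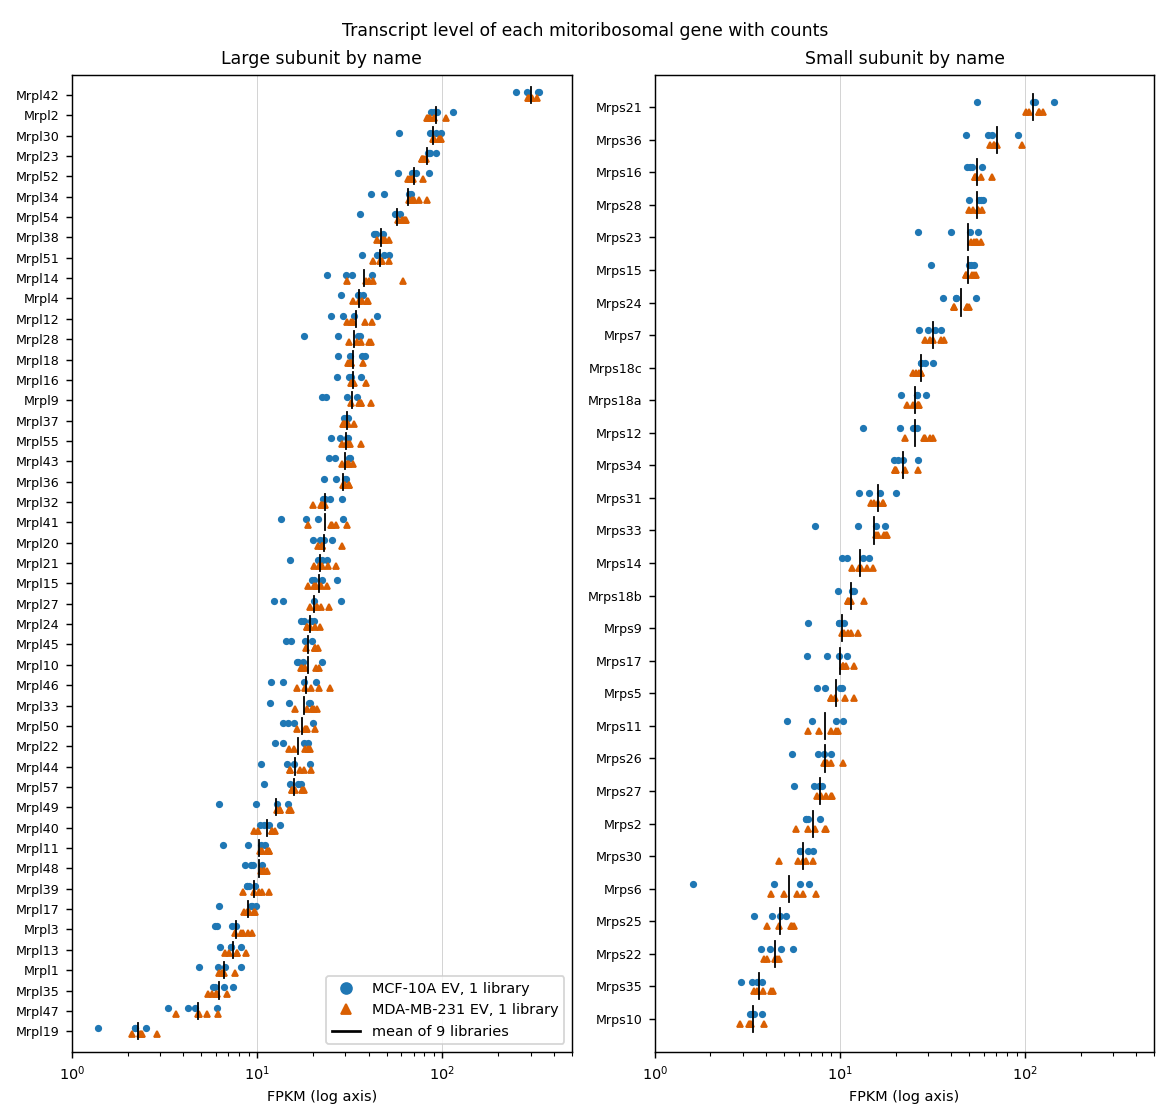
FPKM of the 76 members with counts, by subunit name, on a log axis; per deposited gene length; each circle is 1 MCF-10A library, each triangle 1 MDA-MB-231 library and the black line the mean of 9 libraries. Mrpl42 stands apart at 251 to 331 FPKM, and the libraries of the groups are mixed in nearly all rows; Mrpl53 had 0 counts and is not drawn.

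Between the groups the family was close to level. With edgeR's quasi-likelihood test 0 of 76 members passed a Benjamini-Hochberg adjusted p under 0.05, where 0.0% of all 13901 tested genes passed, and the smallest adjusted p of a member was 0.260 (Mrpl23). At an unadjusted p under 0.05 there were 3 members, all lower in MDA-MB-231, Mrpl23, Mrpl32 and Mrps18c, and 0 higher. Over all tested genes 6.86% were lower and 5.95% higher at that threshold, 12.8% in either direction, so the share of members (3.95%) was below the background. The same 3 members were the only ones whose groups did not overlap, against 3.17% of all tested genes that did not overlap and were lower and 2.22% that were higher. The count and its direction depended on the scaling between libraries. With library sizes unscaled 0 members were lower and 6 higher at an unadjusted p under 0.05, and Mrpl23, Mrpl32 and Mrps18c were not among them, at -0.14, -0.17 and -0.13. On log2(FPKM + 1), also unscaled, there were again 0 lower and 6 higher. All genes at that threshold made up 16.3% and 17.4% in these settings, against 7.89% of members in each. DESeq2 called 1 member, Mrpl23, at an adjusted p under 0.05, where it called 2.28% of 7503 genes lower and 0.773% higher.

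The number of members at an unadjusted p under 0.05 moved with single libraries. Without MCF-10A replicate 2 it was 7 lower and 0 higher, without replicate 3 it was 6 lower and 2 higher, and without replicate 4 it was 4 lower and 3 higher. Without MDA-MB-231 replicate 3 it was 3 lower and 2 higher. Of all genes tested in these 4 fits, 13.2%, 14.2%, 14.8% and 10.0% were at an unadjusted p under 0.05 in either direction, above the 9.21%, 10.5%, 9.21% and 6.58% of members. In each of these fits 0 members passed after adjustment. Mrpl23, Mrpl32 and Mrps18c were among the members at an unadjusted p under 0.05 in each of the 9 fits that left out 1 library.

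The median log2 fold change (MDA-MB-231 over MCF-10A) was -0.007 over the 76 members, with a range from -0.30 to 0.29, beside 0.02 over all tested genes. Below 0 were 41 of 76 members, beside 46.9% of all tested genes. With library sizes left unscaled 15 of 76 members were below 0 and the median was 0.13, while the median of all genes moved to 0.15. The member median minus that of all genes was -0.03 under either scaling. Leaving out single libraries moved the member median between -0.06, without MCF-10A replicate 2, and 0.04, without MCF-10A replicate 4. These values lay within 0.0991, the SD between replicates of the mean log2 CPM over members. In fits added after the data were seen, the number below 0 also moved. Without MCF-10A replicates 1 and 2 it was 57 of 76, with the member median minus that of all genes at -0.099. In only the libraries without Ins2 above 10 CPM it was 49 of 76, at -0.07. In only those with Ins2 above 10 CPM it was 30 of 76, at 0.03.

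The intervals give the uncertainty of each member's estimate under the edgeR model, gene by gene and at fixed TMM factors. They make no allowance for 76 intervals read at once or for the choice of scaling. The 95% interval of the log2 fold change stayed within 0.5 of 0, a 1.41-fold difference, for 62 of 76 members (81.6%), beside 41.8% of all tested genes. It stayed within 1 of 0 for 76 of 76, beside 81.5% of all tested genes. The median SE was 0.118 for members and 0.165 for all tested genes. Members also had a higher median level, 19.3 FPKM against 3.53 FPKM for all tested genes. The share within 0.5 of 0 was 79.5% for cytosolic ribosomal proteins and 77.8% for nuclear genes of respiratory complex I. A share of this size was therefore not particular to the family. The 14 members with wider intervals were 9 of the large subunit and 5 of the small, with Mrps6 the widest at -0.53 to 0.81.

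**Figure D2:**
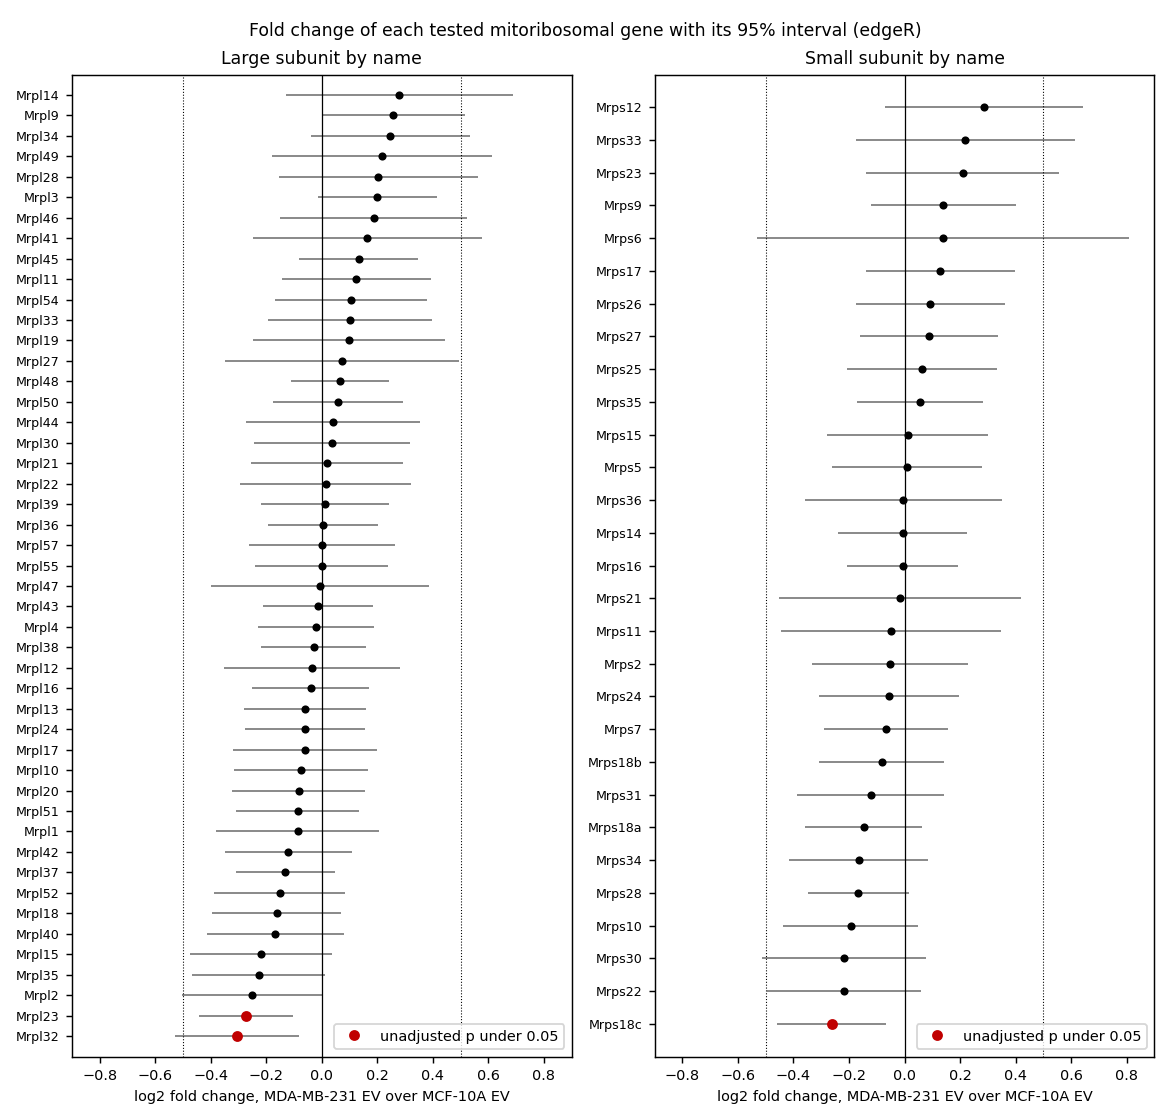
Log2 fold change of the 76 tested members with 95% intervals from edgeR, by subunit name; dotted lines mark 0.5 on either side of 0 and red points the 3 members at an unadjusted p under 0.05. Estimates run from -0.30 to 0.28 in the large and from -0.26 to 0.29 in the small subunit, and 62 intervals lie within the dotted lines.

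The medians of the subunits differed by 0.007 on the log2 scale, beside an SD between replicates of 0.0481 for the large minus small subunit mean. The median log2 fold change was -0.001 over 47 tested large subunit members, with 24 below 0, and -0.007 over 29 small subunit members, with 17 below 0. With library sizes unscaled the medians were 0.13 and 0.12. Placing Mrps30 and Mrps18a in the large subunit and leaving out Mrps36 gave -0.007 for each. By origin, the median was -0.01 for 30 large subunit members with a bacterial counterpart and 0.001 for 19 tested mitochondria-specific ones, and -0.01 for 16 and 0.06 for 10 in the small subunit. The 3 members at an unadjusted p under 0.05 all had a bacterial counterpart, as did most of the 76 tested members (30 large and 16 small). A link with origin was not tested.

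In MCF-10A replicates 1 to 4 the large minus small subunit difference of mean log2 CPM was 0.37, 0.49, 0.37 and 0.36. In MDA-MB-231 replicates 1 to 5 it was 0.45, 0.37, 0.43, 0.37 and 0.38. The large subunit was above the small in each library, most so in MCF-10A replicate 2, and the groups overlapped, at 0.40 ± 0.0603 (SD, n = 4) and 0.40 ± 0.0364 (SD, n = 5).
As a share of all counts, the members took 0.265%, 0.246%, 0.285% and 0.316% in MCF-10A and 0.300%, 0.325%, 0.283%, 0.297% and 0.292% in MDA-MB-231. The group means were 0.278% ± 0.0300 (SD, n = 4) and 0.299% ± 0.0157 (SD, n = 5), and their ranges overlapped. Such a share divides by the library total, as the unscaled setting does, so it moves with the most abundant transcripts. TMM factors ran from 0.910 to 0.985 in MCF-10A and from 1.02 to 1.06 in MDA-MB-231.

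Mrpl23 had the smallest p of the family and the smallest spread within groups, 0.0475 on the log2 scale against a median of 0.177 for members. Its protein is the counterpart of bacterial uL23, which lies at the exit of the tunnel through which new proteins leave the ribosome. The gene (ENSMUSG00000037772; mm10, chromosome 7, 142532799 to 142540747, plus strand) had 65.8, 65.6, 62.1 and 67.7 CPM for MCF-10A replicates 1 to 4, and 56.7, 53.3, 54.5, 53.2 and 52.5 CPM for MDA-MB-231 replicates 1 to 5. Every MDA-MB-231 library lay below every MCF-10A library. The mean was 65.3 ± 2.33 CPM (SD, n = 4) for MCF-10A against 54.0 ± 1.67 CPM (SD, n = 5) for MDA-MB-231, and the log2 fold change was -0.27 ± 0.0776 (SE) with an edgeR adjusted p of 0.260. DESeq2 gave -0.28 and an adjusted p of 0.0134. Under the settings and left-out libraries tried, the log2 fold change of Mrpl23 stayed below 0, from -0.34 to -0.14. A pseudogene with the name Mrpl23-ps1 had 7 to 22 counts, beside 844 to 1540 for Mrpl23.

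Mrpl32, whose precursor is cut by the m-AAA protease before the protein joins the ribosome, had the lowest estimate of the family. The gene (ENSMUSG00000015672; mm10, chromosome 13, 14610301 to 14613037, minus strand) had 19.7, 23.8, 19.3 and 17.9 CPM for MCF-10A, and 15.1, 16.9, 16.8, 16.6 and 16.2 CPM for MDA-MB-231. The groups did not overlap, and the highest value was in MCF-10A replicate 2. The log2 fold change was -0.30 ± 0.103 (SE) with an edgeR adjusted p of 0.295.
Mrps18c is one of the paralogs of bacterial S18 in vertebrate mitochondria. The gene (ENSMUSG00000016833; mm10, chromosome 5, 100798627 to 100804471, plus strand) had 24.9, 28.1, 22.9 and 24.1 CPM for MCF-10A, and 20.6, 21.2, 20.0, 21.5 and 20.7 CPM for MDA-MB-231. Again the groups did not overlap and MCF-10A replicate 2 was the highest, with a log2 fold change of -0.26 ± 0.0899 (SE) and an edgeR adjusted p of 0.297. The other S18 paralogs had log2 fold changes of -0.15 ± 0.0965 (SE) for Mrps18a and -0.082 ± 0.103 (SE) for Mrps18b. Their groups overlapped. Mrps18b shares 30.5% of its exon bases with an antisense transcript.

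Next among the estimates below 0 in the large subunit were Mrpl2 and Mrpl35. Mrpl2 was at 106, 129, 90.9 and 95.1 CPM for MCF-10A and 83.8, 101, 83.7, 88.7 and 84.2 CPM for MDA-MB-231, and the log2 fold change was -0.25 ± 0.116 (SE); the groups overlapped through MDA-MB-231 replicate 2. Mrpl35 was at 23.5, 29.9, 22.3 and 25.2 CPM and 21.8, 21.2, 20.8, 19.3 and 24.4 CPM, a log2 fold change of -0.23 ± 0.111 (SE), with overlap through MDA-MB-231 replicate 5. Both were highest in MCF-10A replicate 2. In the small subunit Mrps28 was at 42.7, 47.7, 47.1 and 46.2 CPM and 42.4, 43.0, 40.3, 37.5 and 41.4 CPM, a log2 fold change of -0.17 ± 0.0833 (SE), with MCF-10A replicate 1 inside the range of the other group. Mrps10, the counterpart of a protein in the head of the bacterial small subunit, had a log2 fold change of -0.19 ± 0.111 (SE). Mrps22, a mitochondria-specific protein in which human mutations cause mitochondrial disease, had one of -0.22 ± 0.128 (SE). Without MCF-10A replicate 2 the log2 fold change was -0.095 for Mrps22, -0.14 for Mrpl2 and -0.14 for Mrpl35. The edgeR adjusted p of these 5 members ran from 0.391 to 0.485.

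On the other side of 0 the smallest p values of the large subunit were those of Mrpl9, Mrpl3, Mrpl34 and Mrpl14. Mrpl9 (chromosome 3, 94443318 to 94451130) was at 40.6, 42.5, 51.7 and 58.3 CPM for MCF-10A and 58.9, 64.2, 51.8, 56.3 and 57.6 CPM for MDA-MB-231. Only MCF-10A replicates 1, 2 and 3 lay below all MDA-MB-231 libraries, and replicate 4 was inside their range. The log2 fold change was 0.26 ± 0.119 (SE) with an edgeR adjusted p of 0.391. Mrpl3, the counterpart of a core protein near the catalytic centre, was at 25.9, 26.0, 31.2 and 29.6 CPM and 34.6, 35.1, 29.4, 32.1 and 30.8 CPM, with a log2 fold change of 0.20 ± 0.0981 (SE). Mrpl34 was at 29.3, 33.9, 44.5 and 43.4 CPM and 51.8, 45.2, 43.4, 43.4 and 40.6 CPM, with a log2 fold change of 0.25 ± 0.132 (SE). In both genes MCF-10A replicates 1 and 2 were the lowest libraries and the others overlapped, and without replicate 1 Mrpl34 was at 0.14. Mrpl14 was at 16.996, 21.1, 21.2 and 27.5 CPM and 26.6, 37.3, 24.5, 18.9 and 24.5 CPM, a log2 fold change of 0.28 ± 0.187 (SE) in which MDA-MB-231 replicate 2 was the highest library. Without that library it was 0.13, and without MCF-10A replicate 1 it was 0.18. The edgeR adjusted p of Mrpl3, Mrpl34 and Mrpl14 was 0.415, 0.448 and 0.542.

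In the small subunit Mrps12, a protein of the decoding centre, was at 20.5, 12.8, 23.4 and 22.3 CPM for MCF-10A and 27.4, 23.7, 19.5, 24.5 and 25.8 CPM for MDA-MB-231. Its log2 fold change of 0.29 ± 0.164 (SE) was the highest of the family (edgeR adjusted p = 0.476), and the groups overlapped except for the low MCF-10A replicate 2. Without that library the log2 fold change of Mrps12 was 0.13. Mrps23 was at 61.5, 40.0, 71.8 and 79.6 CPM and 74.0, 76.5, 70.2, 74.3 and 70.9 CPM, a log2 fold change of 0.21 ± 0.160 (SE). Mrps33 was at 15.2, 8.86, 17.7 and 19.8 CPM and 17.3, 18.5, 16.9, 19.1 and 18.1 CPM, a log2 fold change of 0.22 ± 0.181 (SE). MCF-10A replicates 1 and 2 were the lowest libraries of both genes, and without these replicates the log2 fold changes were -0.050 and -0.060. Without replicate 2 alone they were 0.044 and 0.035, and without replicate 4 they were 0.34 and 0.36. Mrps9 was at 17.9, 25.9, 24.4 and 26.0 CPM and 26.9, 28.4, 25.04, 23.8 and 25.5 CPM, with a log2 fold change of 0.14 ± 0.119 (SE) that was 0.029 without MCF-10A replicate 1. The edgeR adjusted p of Mrps23, Mrps33 and Mrps9 ran from 0.596 to 0.640.

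**Figure D3:**
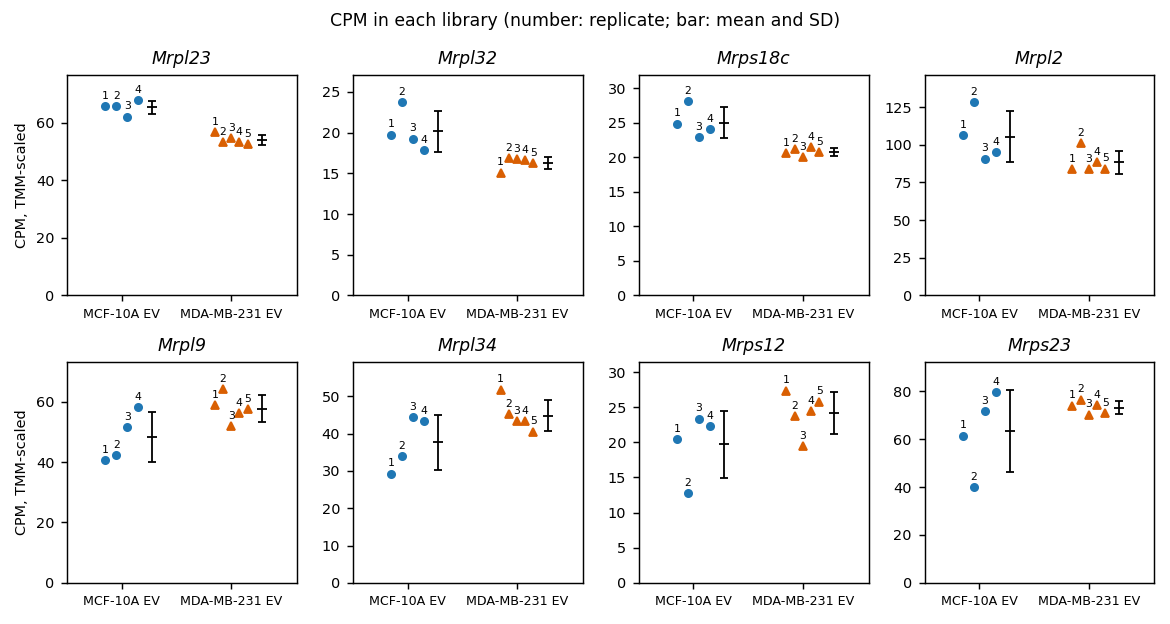
CPM (counts scaled to library size by TMM) of 8 members in each library, with replicate numbers at the points and the mean and SD of each group beside them. The groups are apart in Mrpl23, Mrpl32 and Mrps18c and overlap in the other panels, where MCF-10A replicates 1 and 2 often lie outermost.

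Of the members named for other reasons, none was at an unadjusted p under 0.05. The log2 fold change was -0.12 ± 0.105 (SE) for Mrpl42, -0.036 ± 0.146 (SE) for Mrpl12 and -0.018 ± 0.199 (SE) for Mrps21. It was -0.22 ± 0.136 (SE) for Mrps30, which sits in the large subunit, and -0.0045 ± 0.163 (SE) for Mrps36. Without MDA-MB-231 replicate 5 Mrps30 was at -0.13, and without MCF-10A replicate 2 Mrps21 was at -0.22. Mrpl42 was at -0.049 without MCF-10A replicate 1 and at -0.19 without replicate 2. Mrpl30 was at 0.04, Mrps16 at -0.01, Mrpl47 at -0.01, Mrps35 at 0.055 and Mrpl19 at 0.10. Of these members Mrpl12, Mrpl19, Mrpl30, Mrpl47, Mrps16, Mrps21 and Mrps36 changed sign in at least 1 fit that left out a single library, and Mrps35 was at 0.0031 without MCF-10A replicate 1. Among these 10 members the smallest edgeR adjusted p was 0.511 (Mrps30).

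MCF-10A replicate 2, the shallowest library, was the one in which members lay farthest from their usual levels, in both directions. Of the 76 members, 32 had their lowest CPM in this library and 16 their highest. The deviation of a member was taken as its log2 CPM minus the median of the other 8 libraries. The SD of these deviations over the members was 0.440 in MCF-10A replicate 2 and 0.114 to 0.216 in the other libraries. The same measure stood at 0.395 there for 36 nuclear genes of respiratory complex I, at 0.356 for cytosolic ribosomal proteins and at 0.532 for 9095 tested genes in the members' CPM range, where other libraries had 0.231 to 0.396. The wider spread was therefore not particular to the family.

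The members farthest below their usual level there were chosen after their values were seen. Mrps6 had a deviation of -1.67, on 19 to 130 counts over all libraries, and it shares 10.4% of its exon bases with Slc5a3 on the same strand. Mrps33 had a deviation of -1.01, Mrps21 of -0.95, Mrpl49 of -0.92, Mrps12 of -0.87, Mrps23 of -0.86 and Mrpl28 of -0.86. Above their usual level were Mrpl2 and Mrps22 with 0.52 each, and Mrpl32 and Mrpl47 with 0.50 each. Mrps18c had 0.40, so Mrpl32 and Mrps18c, which had lower means in MDA-MB-231, were both high in this library. Without it their log2 fold changes were -0.22 and -0.20, and that of Mrpl23 was -0.27.

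The other libraries had a smaller spread of deviations, but MCF-10A replicate 4 was more one-sided. It had the highest CPM for 27 members, with a median deviation of 0.15, and MDA-MB-231 replicate 2 for 11, with a median of 0.10. MCF-10A replicate 1 had the lowest for 16.

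**Figure D4:**
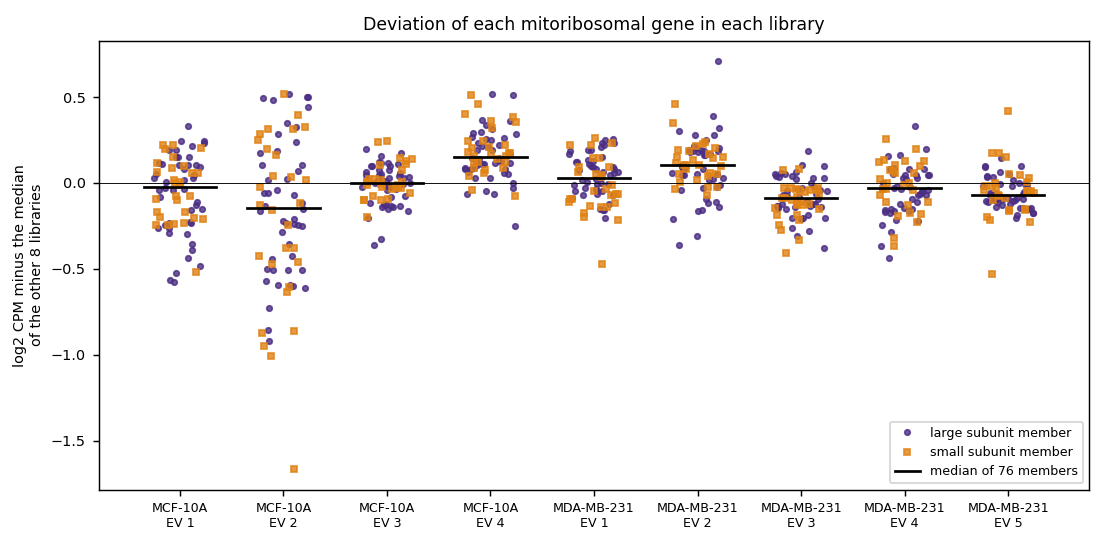
Deviation of each of the 76 members in each library, as log2 CPM minus the median of the other 8 libraries, with the large subunit in circles, the small in squares and the median as a bar. Points spread from -1.67 to 0.52 in MCF-10A replicate 2, and the median bar is highest in MCF-10A replicate 4, at 0.15.

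Other genes of mitochondrial translation were read from lists, in the same fit. No gene of these lists passed after adjustment in edgeR. Of 7 ribosome proteins listed under other names, 6 were below 0 (median -0.11). The 1 above 0, at 0.0011, was Mrpl57, which is also counted among the 77 members. Chchd1 was at -0.15 ± 0.0809 (SE). Gadd45gip1 was at -0.17 ± 0.154 (SE), and at -0.098 without MDA-MB-231 replicate 5 and -0.26 without replicate 2. With library sizes unscaled 2 of these 7 were below 0. Of 25 assembly factors, which modify the ribosomal RNAs or join the subunits, 10 were below 0 (median 0.09), and with library sizes unscaled 2 were (median 0.23). The lowest p among them was that of Mrm1, a methyltransferase of the large subunit RNA, at 0.43 ± 0.180 (SE). Of 16 translation factors 7 were below 0 (median 0.03), and unscaled 3 were. Mrrf, the factor that recycles ribosomes after termination, was at 14.9, 16.2, 14.6 and 16.6 CPM for MCF-10A and at 13.3, 12.4, 14.3, 12.7 and 13.7 CPM for MDA-MB-231. Its groups did not overlap, with a log2 fold change of -0.23 ± 0.0960 (SE) and an edgeR adjusted p of 0.352.

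Of 19 mitochondrial aminoacyl-tRNA synthetases and related enzymes, which load the transfer RNAs, 14 were below 0 (median -0.06), and with library sizes unscaled 5 were. Cars2, for cysteine, was at 0.34 ± 0.132 (SE). Lars2, for leucine, was at 116, 633, 182 and 108 CPM for MCF-10A and at 97.2, 90.7, 132, 78.5 and 118 CPM for MDA-MB-231. Its log2 fold change of -1.33 ± 0.516 (SE) was -0.39 without MCF-10A replicate 2, and the other libraries overlapped. Of 11 genes that replicate or transcribe mitochondrial DNA, 6 were below 0 (median -0.10), and unscaled 4 were. Peo1, the mitochondrial helicase Twinkle, was at -0.34 ± 0.130 (SE), and it shares exons with Mrpl43 on the opposite strand. Tfam, which packages mitochondrial DNA, was at 0.03 ± 0.0951 (SE), and at -0.051 without MCF-10A replicate 2. The adjusted p of Cars2, Lars2 and Peo1 in edgeR lay between 0.327 and 0.343.

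The 13 mRNAs that the mitochondrial ribosome translates had a median log2 fold change of 0.09, with 5 below 0 and unscaled 3, and mt-Co1 was at 0.33 ± 0.175 (SE), or 0.19 without MCF-10A replicate 2. Their summed level was 77071 ± 8036 CPM (SD, n = 4) in MCF-10A and 86548 ± 13760 CPM (SD, n = 5) in MDA-MB-231, with overlapping ranges. The RNAs of the mitochondrial ribosome itself were not analysed here. Of 9 regulators of nuclear genes for mitochondria 2 were below 0, unscaled as well. Yy1 was at -0.26 ± 0.110 (SE), and Ppargc1a, which encodes the coactivator PGC-1α, at -0.50 ± 0.318 (SE) with 57.8 CPM for MCF-10A replicate 2 against 17.4 to 28.6 CPM in the other MCF-10A libraries. Without that library Ppargc1a was at 0.00090. Nrf1 was at 0.04 and Gabpa at 0.10.

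Cytosolic ribosomal proteins, the counterpart family outside mitochondria, gave a different count. Of 78 tested, 73 were below 0 (median -0.16), and 25 (32.1%) were at an unadjusted p under 0.05 and lower. In edgeR 0 passed after adjustment, and DESeq2 called 10. Beside this, 46.9% of all tested genes were below 0 and 6.86% were lower at that threshold. DESeq2 called 2.28% of 7503 genes lower and 0.773% higher. With library sizes unscaled 47 of 78 were below 0 (median -0.03) and 1 was at an unadjusted p under 0.05 and lower. The count of 25 moved with single libraries, to 40 without MCF-10A replicate 2, 14 without MCF-10A replicate 4, 15 without MDA-MB-231 replicate 5 and 16 without MDA-MB-231 replicate 3, and it was 8 with the replicate number as a block. In the same order, 13.2%, 14.8%, 9.65%, 10.0% and 7.41% of all genes were at that threshold in either direction. The share of all genes was 16.3% unscaled. Many genes of cytosolic ribosomal proteins have processed pseudogenes that could take some of their reads, which was not tested here. Of 36 nuclear complex I genes 15 were below 0 (median 0.05), and 0 were at an unadjusted p under 0.05. With library sizes unscaled 2 of 36 were below 0 (median 0.18), and without MCF-10A replicate 2 there were 25 (median -0.039). The difference between these families and the mitochondrial ribosome was not tested.

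**Figure D5:**
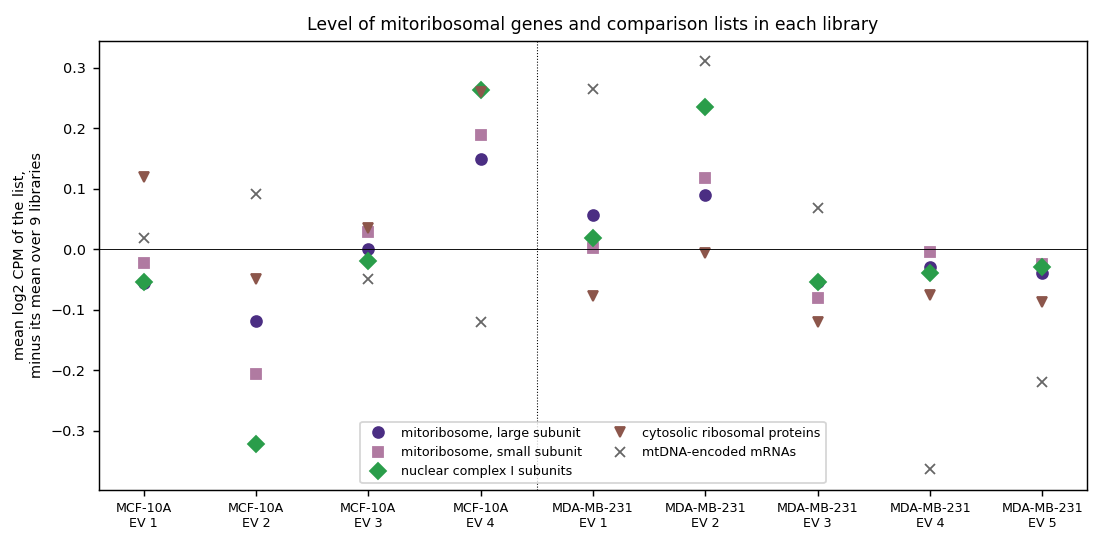
Mean log2 CPM of 5 gene lists in each library, minus the mean of the list over the 9 libraries, with MCF-10A left and MDA-MB-231 right of the dotted line. Large and small subunit members and complex I are lowest in MCF-10A replicate 2 and highest in MCF-10A replicate 4. Cytosolic ribosomal proteins are also highest in MCF-10A replicate 4.

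Across libraries, members and complex I genes had the same lowest library, MCF-10A replicate 2, at a mean log2 CPM of 4.78 for members and 6.91 for complex I. They also shared the highest, MCF-10A replicate 4, at 5.10 and 7.50. Cytosolic ribosomal proteins, at 7.49, and mitochondrial translation factors, at 4.53, were highest in that library too. The shared highest library was therefore not particular to members and complex I. Cytosolic ribosomal proteins were lowest in MDA-MB-231 replicate 3, at 7.11. The mean over members was 4.93 ± 0.131 (SD, n = 4) in MCF-10A and 4.94 ± 0.0650 (SD, n = 5) in MDA-MB-231.
Estimates were also read by promoter motif. The median log2 fold change was 0.013 for 20 genes with the NRF1 motif and -0.0072 for 47 tested genes without. For the ETS motif it was 0.0078 with and -0.0066 without, and for the YY1 motif -0.088 for 8 genes with and 0.0011 without. The difference between the classes was not tested. Genes with the NRF1 motif ranged from -0.30 to 0.28. Mrpl32 and Mrpl14, at the ends of that range, both hold the motif, and Mrpl23 holds none of the 3.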

How the data were processed

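Poly-A RNA from about 20 mg of gastrocnemius was extracted with Trizol and sequenced, per the labels' protocols, in 9 libraries grouped by the EVs injected. Gene counts are whole numbers per gene and library, as deposited by the authors on the mm10 build. Deposited FPKM values came with the counts from the authors, and 100% of them equal the count divided by gene length and library total within 0.1%, with no scaling between libraries. Per the submitters' processing notes, the tools were STAR 2.5, TopHat and HTSeq 0.6.1 as well as edgeR and DESeq2, with no roles stated. The annotation release and the strand setting are not given in the sources used here, so reads of genes on opposite strands of a shared region may be mixed: 28 of 76 members matched to GENCODE M21 by gene ID share exon bases with another gene, 17 of them over 10%. Mrpl33 was not matched.

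All 13901 genes that passed filterByExpr (minimum count 10, minimum total 15) were tested in R 4.3.3 with edgeR 4.0.16, by its robust quasi-likelihood test with TMM scaling (two-sided), with Benjamini-Hochberg adjustment over all of them and 0.05 as the threshold. Members were read from this fit. CPM is TMM-scaled, and log2 CPM used a prior count of 2. The biological coefficient of variation was 20.2%. The procedure was tested on simulated counts in which libraries of a group shared the same mean for each gene. No simulated library was set apart like MCF-10A replicate 2, so the simulation cannot show how the procedure behaves with one. Alternatives were upper-quartile factors, RLE factors, library sizes without scaling, no filter or CPM above 1 in 4 libraries, DESeq2 1.42.0, limma 3.58.1 voom, the replicate number as a block, limma on FPKM as log2 with a pseudocount of 1 or of 0.1, and each library left out in turn. Added after seeing the data were only libraries with, or without, Ins2 above 10 CPM, and a fit without MCF-10A replicates 1 and 2. Levels per GENCODE M21 exon length or longest coding transcript were also added then. Python 3.11.15 with matplotlib 3.10.9 drew the figures. Unused per-sample columns numbered 0.

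Members and lists were chosen with earlier results of these data known. Members named with values are, in each subunit, the 4 with the smallest p on each side of 0 and the 3 highest and 3 lowest by mean FPKM, plus Mrpl12, Mrps12, Mrps18a, Mrps18b, Mrps18c, Mrps30 and Mrps36. Of each other list up to 3 genes with the smallest p are named, and Tfam, Nrf1 and the members farthest off in 1 library were chosen after their values were seen. The NRF1 core was searched in place of a longer form of the motif whose matches had been counted first.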

Additional observations from a re-analysis of the deposited data

Results flagged for a closer look

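Of 64 checks for a library far from the others of its group, 5 found one, where chance alone gives about 1 in 20. Mrps36 was at 96.7 FPKM in MDA-MB-231 replicate 2 and at 64.4 to 70.9 FPKM in the other libraries of that group. Mrps18b was at 13.5 FPKM in the same library against 11.02 to 11.4 FPKM. In MCF-10A replicate 1, Mrps18b was at 9.83 FPKM against 11.6 to 11.9 FPKM, and Mrps9 at 6.74 FPKM against 9.86 to 10.5 FPKM. In MCF-10A replicate 2 the large minus small subunit mean log2 CPM was 0.49, and it was 0.36 to 0.37 in the other libraries of its group. These values are given without an explanation.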

How the results depend on the processing

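The count of members passing after adjustment was 0 under the edgeR and limma settings tried and 1 with DESeq2 (Mrpl23), which called 229 genes in all, and edgeR called 2 genes without MCF-10A replicate 4 and 0 without any other single library. Members at an unadjusted p under 0.05 numbered 5 with upper-quartile factors, 5 with DESeq2, 6 with unscaled library sizes (all higher), 6 on log2(FPKM + 1), 5 on log2(FPKM + 0.1), 1 in libraries with Ins2 transcripts, and 3 to 8 without single libraries. All genes at that threshold made up 12.7%, 9.56%, 16.3%, 17.4%, 16.7% and 5.25% in the first 6 of these settings and 9.65% to 14.8% without single libraries, in each case a larger share than that of members. Mrpl23, Mrpl32 and Mrps18c were not among the members at that threshold with unscaled library sizes or on either FPKM scale. The median log2 fold changes over all members, large and small subunit moved to 0.13, 0.13 and 0.12 unscaled, 0.13, 0.13 and 0.12 on log2(FPKM + 1), and 0.14, 0.14 and 0.13 on log2(FPKM + 0.1). In these settings the median of all genes was 0.15, 0.10 and 0.16, a shift of 0.13, 0.08 and 0.14 where that of members was 0.13, 0.13 and 0.14. Without single libraries the medians ran from -0.063 to 0.043 for all members. The share of counts in members became 0.427% in MCF-10A and 0.442% in MDA-MB-231 outside the 20 most abundant genes, and 0.473% and 0.491% of summed FPKM. With MCF-10A replicates 1 and 2 both left out the log2 fold change was -0.050 for Mrps23 and -0.060 for Mrps33. The 16 members with the smallest p on either side of 0, 4 per side in each subunit, were followed over the alternatives. Of their 352 values, 349 kept their direction and side of the threshold. These members were picked from the same data for those estimates, so the count cannot show how stable members are in general. Named members nearer 0 that changed sign are given above and are not in it. The cause of the shifts between settings was not tested.

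Same-numbered libraries did not deviate together (correlations of -0.299, -0.178, 0.0377 and 0.0798). Pairs with different numbers ranged from -0.216 to 0.269. So few correlations cannot exclude a factor shared by replicate number. With the replicate number as a block the member median was 0.01 and 2 members were at an unadjusted p under 0.05, with 0 passing. Mrps6, with the fewest counts of the tested members (19 to 130), had the widest interval.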
